A study of Mus musculus with 4 samples.

Results

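The mitochondrial carrier family moves metabolites, cofactors and protons across the inner mitochondrial membrane. Its members in the mouse were taken as every protein-coding gene of the GENCODE M21 annotation of mm10 whose symbol begins with Slc25a, together with Ucp1, Ucp2 and Ucp3. This rule gave 50 genes of 21670 protein-coding genes on chromosomes 1 to 19 and X. Each was examined for trimethylation of lysine 4 on histone H3 (H3K4me3), by peaks within 1000 bp of a start of a protein-coding transcript, in each of 4 peak lists. A gene with such a peak is called marked.

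Carriers of this family are small membrane proteins built from repeats of a common fold, and most exchange one solute for another. In heart muscle they supply the respiratory chain and ATP synthase: ADP enters and ATP leaves through the ADP/ATP translocases, phosphate enters through the phosphate carrier, long-chain fatty acids enter as acylcarnitines, and reducing equivalents enter through the malate-aspartate shuttle. The uncoupling proteins form a branch of the same family, of which UCP1 lets protons leak in brown fat. H3K4me3 lies around the starts of active genes and of many CpG-rich genes, and its presence is not a measure of how much protein is made.

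Hearts of female B6CASTF1/J mice, an F1 hybrid strain, were taken from adults at 2 months of age, and the libraries were made by a protocol for frozen tissue. Tissue was combined in 2 pools, H and G, labelled biological replicates 2 and 1, each with 2 heart biosamples and 2 technical replicates. All labels name the same donor record, and nothing in them shows that the pools held separate animals. The labels give no treatment and no second genotype. One list came from pool H, one from pool G and 2 from both pools together, of which the one called replicated is used unless another is named. It held 24996 peaks, pool H's list 21505, pool G's list 24826 and the second both-pool list 26412. The highest promoter peak of each marked carrier gene was the same in both lists made from both pools, so these are not independent. All 10 cardiomyocyte markers examined, Myh6 and Tnnt2 among them, were marked in all lists, while 0 of 10 hepatocyte markers were. Other marker lists lay between. Of 10 markers each, 8 of brown adipocytes, 6 of erythroid cells, 4 of neurons and astrocytes and 1 of the male germline were marked. These are counts of the replicated list, where 63.0% of all genes were marked. The files give no values per library and no read depth, so the values below carry no replicate error, and no test was made. Each peak has the authors' signal value, read here as fold enrichment over a control, which is an assumption. Fold enrichments are compared only within a list.

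Promoter sequences of 9 members are shown because related genes differ in the mark or in CpG content there. Each is the 250 bases before the start in RefSeq on GRCm38.p6, 5′ to 3′ in the direction of the gene, with every CpG in capitals. The ADP/ATP translocases are Slc25a4 (chr8:46211063-46211312, minus strand), Slc25a5 (chrX:36795347-36795596, plus strand) and Slc25a31 (chr3:40708621-40708870, plus strand). The RefSeq start of Slc25a4 lies 222 bp downstream of the GENCODE start used for the peaks. The uncoupling proteins are Ucp1 (chr8:83290098-83290347), Ucp2 (chr7:100493108-100493357) and Ucp3 (chr7:100472741-100472990), all on the plus strand. Slc25a24 (chr3:109122899-109123148) and Slc25a54 (chr3:109080249-109080498) are neighbours on the plus strand, and Slc25a38 (chr9:120110132-120110381, plus strand) has a high and narrow peak.
Slc25a4: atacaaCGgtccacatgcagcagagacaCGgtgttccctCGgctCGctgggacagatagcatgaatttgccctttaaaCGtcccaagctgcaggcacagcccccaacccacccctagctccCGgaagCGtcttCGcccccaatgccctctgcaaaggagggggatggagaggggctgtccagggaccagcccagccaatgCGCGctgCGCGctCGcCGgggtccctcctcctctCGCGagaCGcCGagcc
Slc25a5: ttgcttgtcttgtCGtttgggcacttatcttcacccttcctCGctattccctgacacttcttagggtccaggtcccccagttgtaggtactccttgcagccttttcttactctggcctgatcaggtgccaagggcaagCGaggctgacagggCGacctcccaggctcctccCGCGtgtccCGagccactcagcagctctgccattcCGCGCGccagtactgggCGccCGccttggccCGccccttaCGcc
Slc25a31: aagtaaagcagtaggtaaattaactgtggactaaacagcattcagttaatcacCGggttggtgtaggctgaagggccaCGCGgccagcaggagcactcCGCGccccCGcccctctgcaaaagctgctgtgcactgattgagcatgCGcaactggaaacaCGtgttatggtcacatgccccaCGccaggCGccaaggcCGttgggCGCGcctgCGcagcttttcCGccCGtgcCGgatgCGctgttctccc
Ucp1: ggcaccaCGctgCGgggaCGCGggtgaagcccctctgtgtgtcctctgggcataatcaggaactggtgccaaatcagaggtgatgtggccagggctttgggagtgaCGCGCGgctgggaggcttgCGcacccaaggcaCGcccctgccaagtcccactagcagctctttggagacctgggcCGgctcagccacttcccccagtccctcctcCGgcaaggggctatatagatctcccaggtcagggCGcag
Ucp2: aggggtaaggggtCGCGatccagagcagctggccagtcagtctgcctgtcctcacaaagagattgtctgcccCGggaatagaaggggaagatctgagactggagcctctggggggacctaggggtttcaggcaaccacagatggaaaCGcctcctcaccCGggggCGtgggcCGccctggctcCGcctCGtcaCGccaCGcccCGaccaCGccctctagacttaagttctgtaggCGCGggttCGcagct
Ucp3: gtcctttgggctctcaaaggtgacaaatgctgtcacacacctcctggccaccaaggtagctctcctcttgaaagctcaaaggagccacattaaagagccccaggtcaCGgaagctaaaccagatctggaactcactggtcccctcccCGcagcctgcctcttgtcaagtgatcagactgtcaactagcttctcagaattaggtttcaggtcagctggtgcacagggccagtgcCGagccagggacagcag
Slc25a24: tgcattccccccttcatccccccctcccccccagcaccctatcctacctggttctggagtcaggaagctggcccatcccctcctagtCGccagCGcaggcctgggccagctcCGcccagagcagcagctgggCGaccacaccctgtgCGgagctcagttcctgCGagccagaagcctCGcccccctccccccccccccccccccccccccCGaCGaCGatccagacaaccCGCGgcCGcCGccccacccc
Slc25a54: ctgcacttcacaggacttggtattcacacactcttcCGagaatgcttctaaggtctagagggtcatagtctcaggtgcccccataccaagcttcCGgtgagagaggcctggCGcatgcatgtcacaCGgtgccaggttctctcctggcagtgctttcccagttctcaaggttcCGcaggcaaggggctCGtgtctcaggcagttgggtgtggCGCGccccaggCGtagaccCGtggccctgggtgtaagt
Slc25a38: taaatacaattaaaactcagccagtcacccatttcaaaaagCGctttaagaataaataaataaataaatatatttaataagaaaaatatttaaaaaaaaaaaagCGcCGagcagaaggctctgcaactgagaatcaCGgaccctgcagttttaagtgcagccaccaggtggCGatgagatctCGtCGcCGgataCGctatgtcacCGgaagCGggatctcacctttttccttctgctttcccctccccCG

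The marked set of these 9 comprised Slc25a4, Slc25a5, Ucp2, Ucp3, Slc25a24 and Slc25a38. The printed bases held 18 CpG in Slc25a4, 14 in Slc25a5 and 18 in the unmarked Slc25a31. They held 12 in the unmarked Ucp1, 16 in Ucp2 and 3 in Ucp3. Among these 9 promoters, the number of CpG did not separate marked from unmarked genes. The printed stretch lay wholly inside a peak in Slc25a4, Ucp2 and Slc25a24. In Slc25a38, 120 of its 250 bases did, in Ucp3 4, and in Slc25a5 0, because the Slc25a5 peak began at chrX:36795600, just past the printed bases. These counts are of the replicated list. In pool H's list the Slc25a5 peak began at chrX:36795615, but in pool G's at chrX:36795276, so that it covered all the printed bases.

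Most carrier promoters were marked. Of the 50 members 41 (82.0%) had a promoter peak in the replicated list, where 63.0% of all protein-coding genes had one. The same 41 genes were marked in pool H's list (all genes 61.3%), in pool G's list and in the second both-pool list (all genes 63.4% each). Over all genes, 61.1% were marked in all 4 lists. The 9 members with no promoter peak in any list were Slc25a2, Slc25a18, Slc25a31, Slc25a37, Slc25a41, Slc25a47, Slc25a48, Slc25a54 and Ucp1. In tissue that holds several cell types, fewer marked cells and less mark per cell cannot be told apart. One of the 9, Slc25a37, has a promoter that occurs at a second place in mm10, described with the iron carriers below. Without it, 41 of 49 members (83.7%) were marked.

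The height of the mark at carrier promoters was close to that at other genes. The highest promoter peak of the 41 marked members had a median fold enrichment of 14.9, from 6.17 to 26.9, against 15.3 over all 13657 marked genes. In pool H's list the medians were 12.5 and 12.9, and in pool G's list 18.4 and 18.2. Of the 41 members 20 stood above the median of all marked genes. Members of several roles lay on both sides of that median, as the plot of fold enrichment by role shows.

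**Figure D1:**
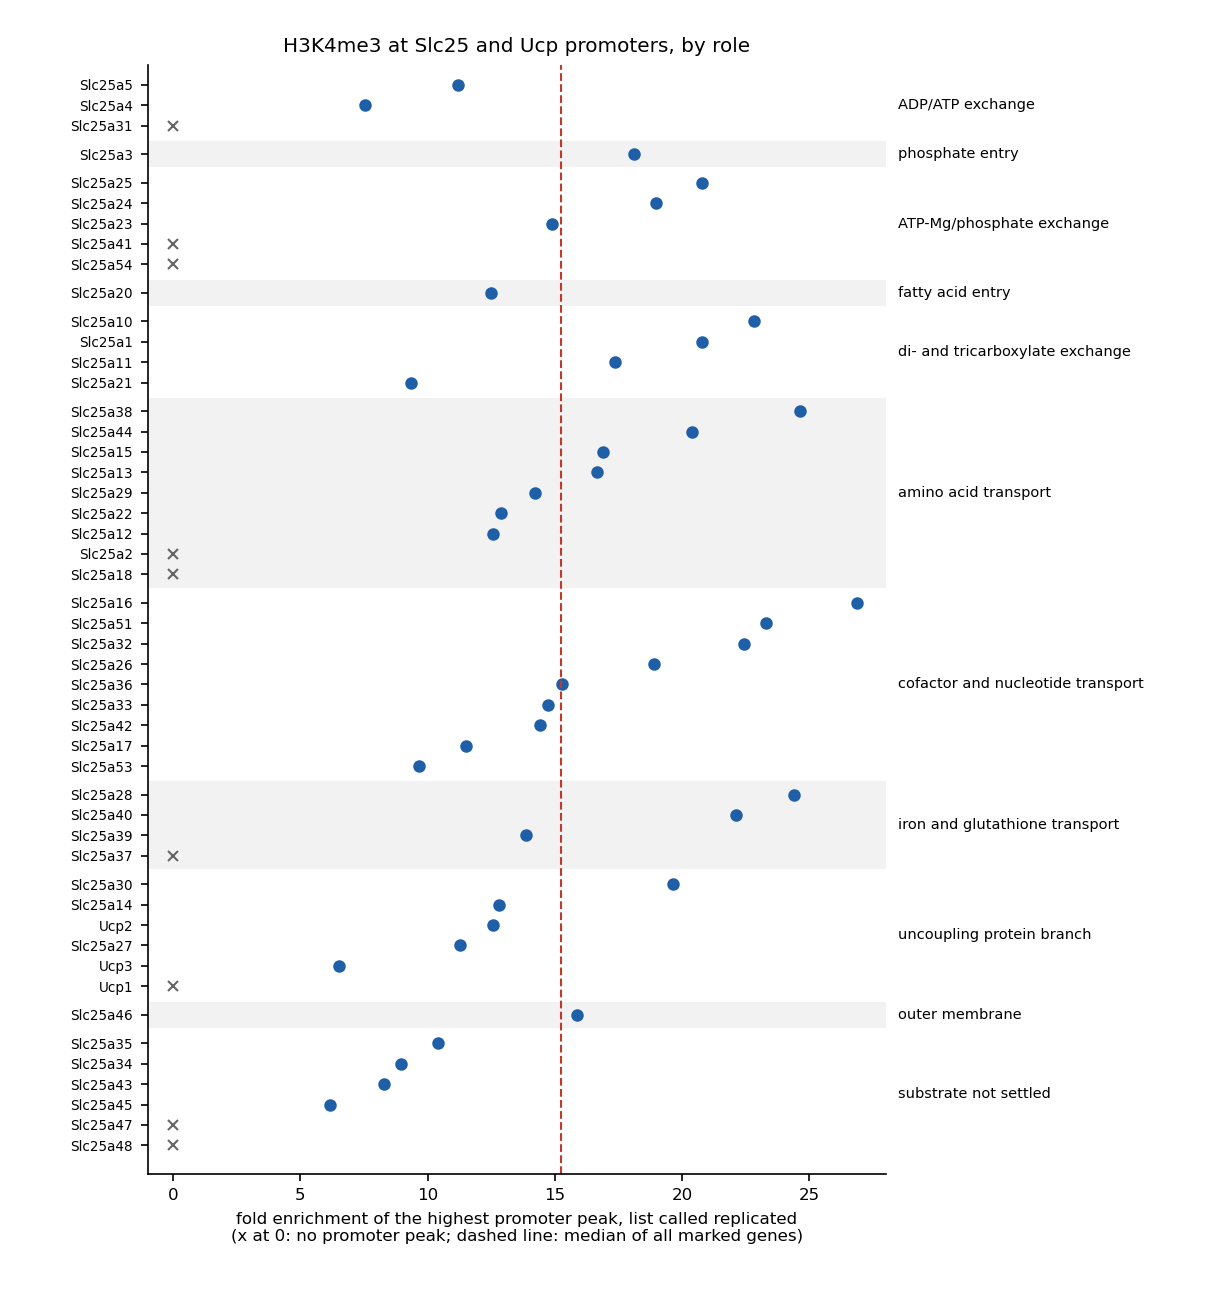
Fold enrichment of the highest promoter peak (x axis, authors' signal value in the replicated list) for 49 of the 50 genes, grouped by role (right) and sorted within a role. Dots are marked genes, crosses at 0 are genes with no promoter peak, and the dashed line is the median of all 13657 marked genes, 15.3. The 4 marked carriers of unsettled substrate all lie at 10.4 or lower, and both ADP/ATP translocases with a peak lie left of the line.

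The ADP/ATP translocases carried 3 different patterns. Slc25a4, translocase 1 and the main isoform of heart and skeletal muscle, had a wide peak that was low in the replicated list. Its fold enrichment was 7.54 in the replicated list, 10.9 in pool H's and 8.89 in pool G's. The single peak ran without a break from chr8:46206637 to chr8:46212370, 5734 bp in the replicated list, 5698 bp in pool H's and 5706 bp in pool G's. It covered 100% of the 4488 bp gene, from 1086 bp upstream of the start to past its end. Among all marked genes of the replicated list, Slc25a4 stood at the 14.3rd percentile of fold enrichment and at the 97.7th of domain width, and its peak at the 99.4th of peak width. Its percentile of fold enrichment was 34.8 in pool H's list. Slc25a5, translocase 2 and a broadly used isoform, is on the X chromosome. It had fold enrichments of 11.2 in the replicated list, 10.0 in pool H's and 13.4 in pool G's. Its domain was 1384 bp in the replicated list, 1346 bp in pool H's and 2012 bp in pool G's. Thus the heart isoform had the wider domain and the lower replicated-list peak, while in pool H's list its peak was not the lower of the 2. Slc25a31, the isoform of the male germline, was unmarked, and the nearest peak lay 35658 bp from its start, at the promoter of Hspa4l. Of 10 male germline markers 1 was marked.

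Phosphate and acylcarnitine entry were both marked. Slc25a3, the phosphate carrier that feeds ATP synthase, had fold enrichments of 18.1 in the replicated list, 15.4 in pool H's and 21.0 in pool G's. Its domain of 3309 bp in the replicated list, 3236 bp in pool H's and 3806 bp in pool G's was the fourth widest of the family in the replicated list. Slc25a20, the carnitine/acylcarnitine carrier, lay lower and narrower. Its fold enrichments were 12.5 in the replicated list, 11.0 in pool H's and 14.4 in pool G's, and its widths 1775, 1360 and 2044 bp in the same order of lists.

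All 4 carriers of di- and tricarboxylates were marked, where 63.0% of all genes were in the replicated list. Slc25a11, the oxoglutarate/malate carrier of the malate-aspartate shuttle, had fold enrichments of 17.3 in the replicated list, 11.1 in pool H's and 22.2 in pool G's. These are not all of one peak. The highest lay over the most upstream start in the replicated list and pool G's, but not in pool H's. There the peak over that start had 10.03. The Slc25a11 domain measured 3149, 2478 and 3118 bp in the same order of lists and also reached the start of Rnf167, 192 bp from that of Slc25a11. Slc25a10, the dicarboxylate carrier, had a high and narrow peak, with fold enrichments of 22.8, 19.9 and 26.1 and widths of 1555, 1553 and 1525 bp in the replicated list, pool H's and pool G's. Slc25a1, the citrate carrier, stood at 20.8 in the replicated list. Slc25a21, the oxodicarboxylate carrier, was the lowest of the group at 9.33, and its peak of 890 bp began 152 bp downstream of the start.

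Both aspartate/glutamate carriers of the malate-aspartate shuttle were marked at close widths. Slc25a12 (aralar) had fold enrichments of 12.6 in the replicated list, 8.74 in pool H's and 15.1 in pool G's. Slc25a13 (citrin) had 16.7, 13.7 and 21.0 in the same lists, so that it was the higher of the pair in each. Their replicated-list domains were 1800 bp for Slc25a12 and 1760 bp for Slc25a13. A list of 12 enzymes held those of the malate-aspartate shuttle, such as Got1 and Mdh1, of acylcarnitine formation, such as Cpt1b, and of the glycerol phosphate shuttle, Gpd1 and Gpd2, as well as Acly, which cleaves citrate in the cytosol. All 12 were marked in the replicated list (all genes 63.0%) and 11 in pool H's list (all genes 61.3%).

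The glutamate carriers differed, one with a wide domain and one unmarked. Slc25a22, a glutamate carrier, had a domain of 5502 bp in the replicated list, 1715 bp in pool H's and 5531 bp in pool G's. Its fold enrichments were 12.9, 11.0 and 14.8 in the same lists. The domain was joined from 3 peaks in the replicated list over a gene with 13 annotated coding starts. Slc25a18, the second glutamate carrier, was unmarked, 48155 bp from the nearest peak, which belonged to the promoter of Atp6v1e1. Of 10 neuron and astrocyte markers 4 were marked in the replicated list and 3 in pool H's.

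Slc25a38, a glycine carrier used in haem synthesis, had the second highest fold enrichment of the family in the replicated list. In pool H's list Slc25a51 and Slc25a10 also stood above it, and in pool G's list Slc25a51 did. It measured 24.6 in the replicated list, 19.1 in pool H's and 30.3 in pool G's, over domains of 1174, 1029 and 1234 bp. Slc25a44, a carrier of branched-chain amino acids, stood at 20.4 in the replicated list, and Slc25a15, the ornithine carrier of the urea cycle, at 16.9. Slc25a29, a carrier of basic amino acids, had a lower but wider mark, with fold enrichments of 14.2, 9.95 and 18.4 and widths of 3170, 3110 and 3450 bp in the replicated list, pool H's and pool G's. Slc25a2, an ornithine carrier, was unmarked.

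All 10 carriers of cofactors and nucleotides were marked, where 63.0% of all genes were in the replicated list. Their median fold enrichment was 16.5. The highest peak of the family lay at Slc25a16, a carrier linked to coenzyme A, at 26.9 in the replicated list, 21.5 in pool H's and 32.2 in pool G's. It stood at the 99.5th percentile of all marked genes in the replicated list. Its domain of 1648, 1564 and 1688 bp in those lists was below the median width. Slc25a51, the mitochondrial NAD carrier, had 23.3 in the replicated list, 20.2 in pool H's and 30.7 in pool G's. Slc25a32, a folate and FAD carrier, had 22.4, 18.5 and 26.5 in the same lists, and its domain reached the start of Dcaf13, 149 bp away on the opposite strand. The Slc25a32 summit lay upstream of its starts in each list, at positions -376, -399 and -379 bp in the same order of lists. In pool H's list the whole highest peak lay upstream, and the peak over the starts had 15.8. Slc25a42, which carries coenzyme A, was lower and wider, with 14.4, 13.02 and 16.5 and domains of 3084, 1864 and 3146 bp in the replicated list, pool H's and pool G's.

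The remaining cofactor carriers lay between 9.67 and 18.9 in the replicated list. Slc25a26, the S-adenosylmethionine carrier, stood at 18.9. Slc25a33 and Slc25a36 both carry pyrimidine nucleotides. Slc25a33 had 14.8 in the replicated list, 12.7 in pool H's and 23.3 in pool G's, and Slc25a36 had 15.3, 17.2 and 20.3 in the same lists. The order of this pair differed between the pools' lists, Slc25a36 being higher in pool H's and Slc25a33 in pool G's. Slc25a17, a peroxisomal carrier, stood at 11.5 and Slc25a53, a relative of the NAD carrier, at 9.67.

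The calcium-regulated ATP-Mg/phosphate carriers were marked and their relatives were not. Slc25a25 had fold enrichments of 20.8 in the replicated list, 12.6 in pool H's and 24.4 in pool G's. Slc25a24 had 18.97, 16.2 and 22.3 in the same lists, so that Slc25a24 was the higher of the 2 in pool H's list only. Slc25a23 had 14.9, 11.5 and 18.0, the lowest of these 3 genes in every list. Widths in the replicated list were 2981 bp for Slc25a25, 1677 bp for Slc25a24 and 2275 bp for Slc25a23. Slc25a41, a short carrier without the calcium-binding part, and Slc25a54, a further relative, had no promoter peak. Each of these unmarked genes lies beside a marked one: 2056 bp separate the genes Slc25a41 and Slc25a23, and 6461 bp separate Slc25a54 and Slc25a24. The adjacency of members was noticed after their values were seen.

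Among iron and glutathione carriers, mitoferrin 2 had a high mark, highest upstream of its start, and mitoferrin 1 could not be read. Slc25a28, mitoferrin 2, the iron carrier of non-erythroid cells, had fold enrichments of 24.4 in the replicated list, 18.8 in pool H's and 27.2 in pool G's. In each list this highest peak lay wholly upstream of the start. The peak over the start had 18.5, 18.05 and 19.6 in the same order of lists. The Slc25a28 domain was 2886, 2791 and 3291 bp wide in those lists. Slc25a37, mitoferrin 1, the iron carrier of erythroid cells, had no promoter peak, and the nearest peak lay 109675 bp away in the replicated list. However, the whole promoter window of Slc25a37 (chr14:69284112-69286112) occurs base for base a second time on the same chromosome and strand (chr14:69502362-69504362), at the start of the gene Gm16867. All 1952 of its 50-base stretches (100%) were found elsewhere on chromosomes 1 to 19 and X. Neither copy had a peak in the replicated list. How reads that match several places were treated is not given in the sources used here, so an absent mark and unplaced reads cannot be told apart at Slc25a37. For the other 8 unmarked members at most 12.6% of such stretches occurred elsewhere, the highest being Slc25a41. Of 10 erythroid markers 6 were marked, and Gata1, Alas2, Hemgn and Slc4a1 were not.

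The glutathione carriers differed in height and width. Slc25a40 had fold enrichments of 22.1 in the replicated list, 14.5 in pool H's and 29.1 in pool G's. Slc25a39 had 13.9, 12.6 and 16.9 in the same lists, so Slc25a40 was higher in each. The domain was wider at Slc25a39, at 2798 bp in the replicated list, 2593 bp in pool H's and 2853 bp in pool G's. At Slc25a40 it was 1857, 1737 and 2353 bp and reached the start of Dbf4, 134 bp away on the opposite strand.

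Of the uncoupling protein branch 5 of 6 were marked. Ucp1, the proton leak of brown fat, had no peak in any list, and the nearest lay 41233 bp from its start, at the promoter of Elmod2. Ucp2, a broadly used uncoupling protein, had fold enrichments of 12.6 in the replicated list, 8.90 in pool H's and 17.2 in pool G's. Only those of Slc25a4 and Slc25a22 were wider than its domain in the replicated list, which measured 3762 bp, with 3222 bp in pool H's list and 3852 bp in pool G's. Ucp3, an uncoupling protein of skeletal muscle and heart, lies 6904 bp from Ucp2 and had a lower mark. Its fold enrichments were 6.52 in the replicated list, 5.68 in pool H's and 7.27 in pool G's, over widths of 2862, 930 and 2586 bp. In each list Ucp2 was therefore higher and wider than Ucp3. The relatives Slc25a30, Slc25a14 (also named UCP5) and Slc25a27 (also named UCP4) stood at 19.6, 12.8 and 11.3 in the replicated list. Of 10 brown adipocyte markers 8 were marked in the replicated list and 7 in pool H's, while Adipoq and Plin1 were unmarked.

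Carriers whose substrate is not settled lay at the low end. Slc25a35, Slc25a34, Slc25a43 and Slc25a45 were marked at 10.4, 8.95, 8.27 and 6.17 in the replicated list, all below the medians of the members and of all marked genes. However, 0 of the 6 carriers of this group had a CpG-rich promoter, as defined below. The median of all marked CpG-poor genes was 13.4. Slc25a43 is X-linked, and the median of all marked X-linked genes was 10.4. Slc25a45 had the lowest peak of the family in the replicated list and in pool H's list, where it measured 5.37. Slc25a47, a carrier enriched in liver, and Slc25a48 were unmarked. The annotated gene Slc25a47 begins 162 bp from Slc25a29 on the opposite strand, inside the Slc25a29 peak, but its protein-coding starts lie 13027 bp from that peak. Slc25a46, an outer-membrane protein of mitochondrial dynamics, stood at 15.9.

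The unmarked members differed in how far they lay from any peak. The shortest distance was 4067 bp, from Slc25a2 to the peak at the promoter of Taf7, followed by 8939 bp from Slc25a41 to that of Khsrp. Slc25a54 lay 42190 bp from the peak of Slc25a24, and Slc25a48 lay 83742 bp from that of Fbxl21. No unmarked member had a peak in its gene body other than Slc25a47, whose peak is that of Slc25a29.

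CpG-poor promoters were marked more often among the carriers than among all genes, a difference that was not tested and not matched for CpG ratio. The CpG ratio is the observed number of CpG over that expected from base composition. A promoter counted as CpG-rich if, at any of its starts, this ratio reached 0.6 and the GC content reached 50% within 1000 bp on either side. Of the 50 members 21 (42.0%) were CpG-rich, against 33.7% of all genes. Of these 21, 20 were marked (95.2%, all genes 96.7%), and the exception was Slc25a37, whose repeated promoter could not be read. Without it, 20 of 20 (100%) were marked. Of the 29 CpG-poor members 21 were marked (72.4%), where 46.0% of CpG-poor genes were marked. The marked members with the lowest CpG ratios were Ucp3, Slc25a34 and Slc25a45, at 0.209, 0.214 and 0.284, and these had some of the lowest peaks of the family. Every other marked member had a ratio of at least 0.408. The unmarked Slc25a2, Slc25a18, Slc25a41, Slc25a47, Slc25a54 and Ucp1 had ratios from 0.196 to 0.39. The shares above do not split the CpG-poor class by ratio. Several members lay close to a bound: Slc25a31 had a ratio of 0.594 and 49.83% GC, and Slc25a38 and Slc25a21 passed the ratio but had 49.93% and 49.83% GC. The plot of CpG ratio against GC content shows the unmarked members on its left side apart from Slc25a37 and Slc25a31.

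**Figure D2:**
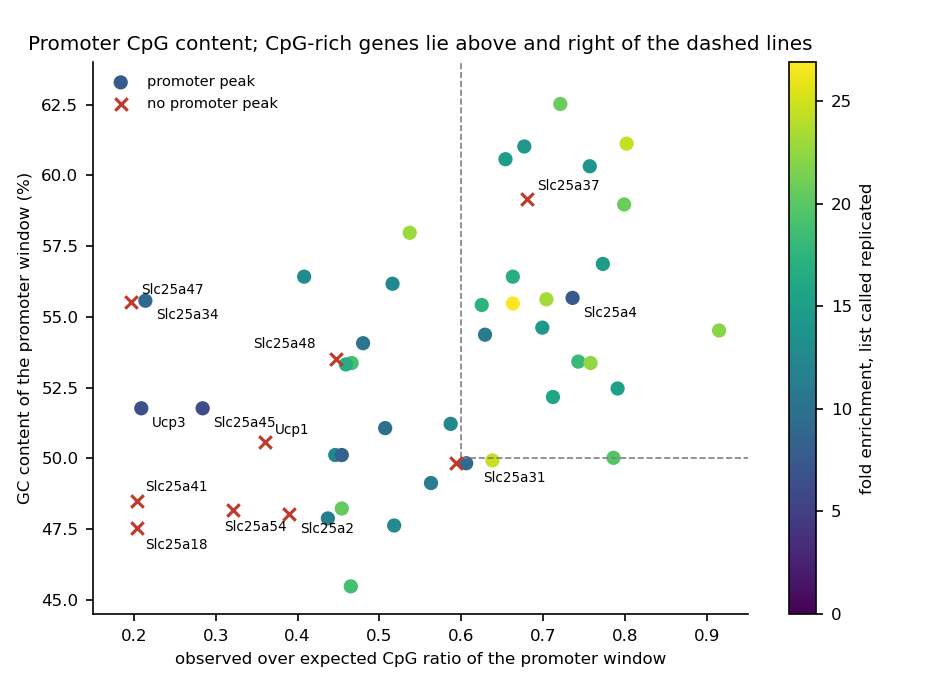
Observed over expected CpG ratio (x axis) against GC content in percent (y axis) of the promoter window with the highest ratio, for 49 of the 50 genes. Dots are marked genes, coloured by fold enrichment in the replicated list, crosses are unmarked genes, and the dashed lines are the bounds of a CpG-rich promoter. Of the crosses only Slc25a37 lies in the CpG-rich corner, and Slc25a31 lies just outside it.

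CpG-rich members had higher and wider marks than CpG-poor ones, as over all genes. Marked CpG-rich members had a median fold enrichment of 17.1 and a median domain width of 2109 bp, against 16.8 and 2120 bp over all marked CpG-rich genes. Marked CpG-poor members had medians of 12.6 and 1524 bp, against 13.4 and 1471.5 bp over all marked CpG-poor genes. Slc25a4, with a CpG ratio of 0.736, had the lowest fold enrichment of the CpG-rich members in the replicated list and in pool G's, but not in pool H's, where Slc25a29 and Slc25a5 were lower. Slc25a22 and Ucp2 were CpG-poor, with ratios of 0.408 and 0.516, and had the widest domains of the family after Slc25a4 in the replicated list. In pool H's list the Slc25a22 domain, at 1715 bp, was narrower than that of Slc25a3, Ucp2, Slc25a29 and Slc25a25, among others.

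Domain width was that of the widest set of peaks at the promoter joined over gaps of at most 1000 bp. Its median was 1768 bp in marked members and 1799 bp in all marked genes, and 17 of the 41 members lay above the median of all marked genes. In pool H's list the medians were 1582 and 1680 bp, and in pool G's list 2012 and 1892 bp. The order also depended on joining. With a gap of 0 bp, the replicated-list medians were 1699 bp in members and 1627 bp in all marked genes. A domain of a single peak was found at 32 of 41 members (78.0%) and 75.6% of all marked genes. Slc25a4 and Slc25a22 were the only members with a domain of at least 4000 bp, a share of 4.88% where all marked genes had 6.82%. Across the 41 members the Spearman correlation of fold enrichment with domain width was 0.092, and across all 13657 marked genes it was 0.408. Genes share the libraries and are not replicates, so these are descriptions.

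**Figure D3:**
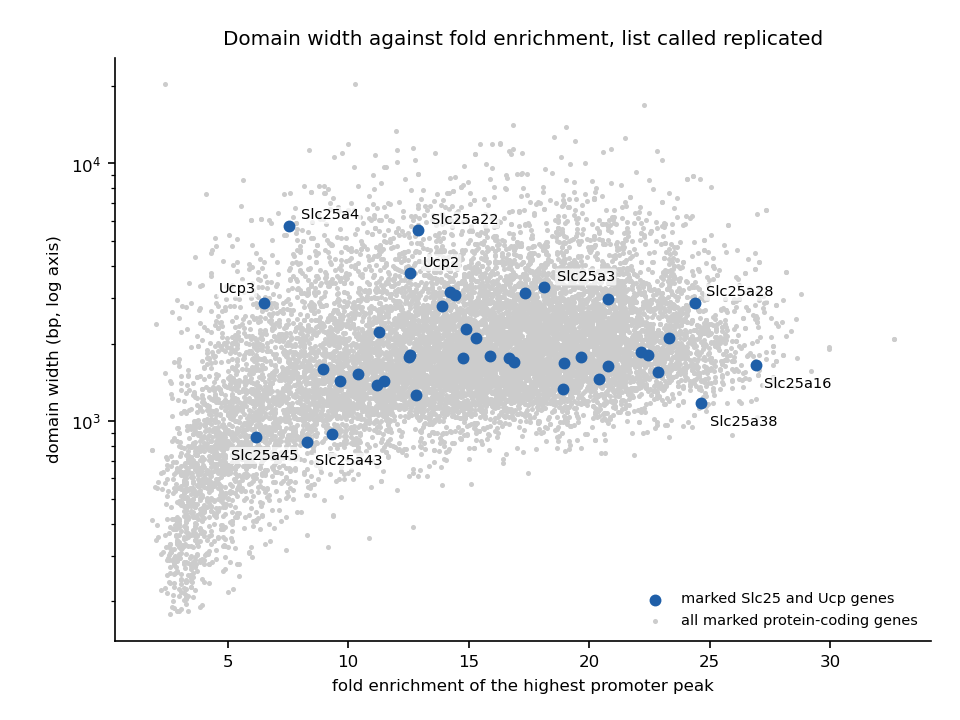
Domain width in bp (y axis, log scale) against fold enrichment of the highest promoter peak (x axis) in the replicated list. Blue dots are 40 of the 41 marked members and grey dots all 13657 marked genes. Slc25a4, 5734 bp wide at a fold enrichment of 7.54, and Slc25a38, 1174 bp wide at 24.6, lie at opposite corners of the members' spread.

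Peaks sat mainly downstream of the start. The start nearest to the summit lay inside the highest peak at 38 of 41 members (92.7%) and at 90.4% of all marked genes. The exceptions were Slc25a21, Slc25a33, whose peak began 62 bp downstream, and Slc25a28, whose highest peak lay wholly upstream, ending at position -216, while a second peak covered the start. The summit was downstream of the start at 33 of 41 members (80.5%) and at 77.6% of all marked genes, with a median position of 170 bp in members and 143 bp in all. The highest peak reached a median of 1041 bp downstream in members, against 986 bp in all marked genes, and 597 bp upstream, against 565 bp. Summits lay in an exon in 18 members, in an intron in 18 and upstream of the whole gene in 5. A summit upstream of its nearest start can lie inside the gene, as at Slc25a14 and Slc25a39, and is then not among the 5. Slc25a11, Slc25a23, Slc25a28, Slc25a32 and Slc25a35 were those 5.

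**Figure D4:**
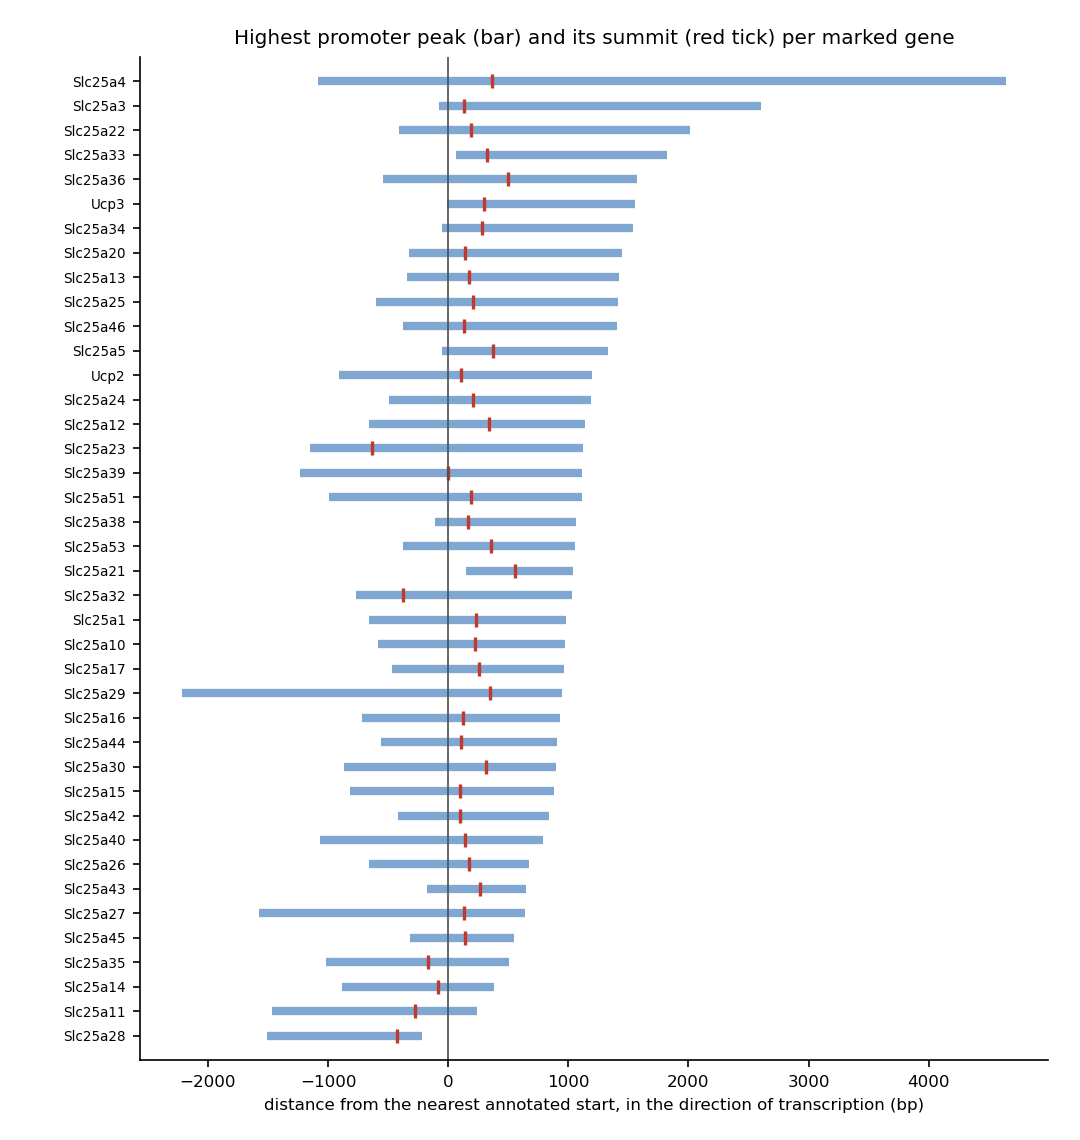
Highest promoter peak of 40 of the 41 marked members in the replicated list (bars) and its summit (red ticks), by distance in bp from the nearest annotated start in the direction of transcription (x axis). Genes are sorted by how far the peak reaches downstream. The Slc25a4 peak reaches 4647 bp downstream, Slc25a3 follows with 2605 bp, and the Slc25a28 peak lies wholly upstream.

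Several members have more than one marked place. Slc25a25 had 3 separate promoter domains in every list. In the replicated list these were the domain of 2981 bp at its most upstream starts, one of 912 bp with a fold enrichment of 5.51 and one of 796 bp with 10.2. Slc25a53 had a second domain of 632 bp in the replicated list, shared with Zcchc18, at 3.26, which pool H's list lacked. Slc25a22 was split only in pool H's list, into 1715 bp and 685 bp. Of the 118 coding starts of marked members 97 lay inside a peak. Every start lay in a peak in 13 of the 26 marked members with several starts, and 9 of the 26 had a start over 1000 bp from any peak.

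Peaks in gene bodies away from coding starts were few. There were 7, in 7 members, and 3 of them lay at the promoter of another gene. The other 4 lay in introns of Slc25a26, Slc25a42, Slc25a25 and Ucp3, at fold enrichments of 4.32, 3.75, 3.63 and 2.88, below those of the promoter peaks of these genes. Those of Slc25a42 and Ucp3 are also joined into the promoter domains whose widths are given above.

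Some carrier domains also came within 1000 bp of a start of another protein-coding gene, so the mark cannot be assigned to one of the pair. Counting each gene's widest domain, this held for 7 of 41 members (17.1%) and for 19.8% of all marked genes. Besides Slc25a40, Slc25a32 and Slc25a11 these were Slc25a27 with Cyp39a1, 211 bp between starts, Slc25a46 with B930094E09Rik, 390 bp, Slc25a23 with Crb3, 758 bp, and Slc25a25 with Naif1, 965 bp. These 7 partners were on the opposite strand. The second, smaller domain that Slc25a53 shares with Zcchc18 is not in this count.

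The X-linked carriers Slc25a5, Slc25a14, Slc25a43 and Slc25a53 were all marked, where 44.4% of all 948 X-linked protein-coding genes were, against 63.9% of autosomal genes. Their median fold enrichment was 10.4, and that of all 421 marked X-linked genes was also 10.4. On the autosomes the medians were 15.9 for marked members and 15.5 for all marked genes. Among X-linked genes, Slc25a14 stood at the 77.4th percentile, Slc25a5 at the 60.3rd, Slc25a53 at the 41.8th and Slc25a43 at the 28.3rd.

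Promoter domains were mostly narrower in pool H's list than in pool G's, in the carriers as in all genes. The log2 ratio of width in pool H over pool G had a median of -0.203 over the 41 members and of -0.174 over 13245 genes marked in both lists. It was below 0 in 39 of 41 members (95.1%) and in 88.7% of all genes. The lowest ratios were -1.689 at Slc25a22 and -1.475 at Ucp3, followed by -0.755 at Slc25a42. These depend on which peaks are joined. Slc25a22 was split into 2 domains in pool H's list, of which only the wider counts. Its highest peak measured 1715 bp in pool H's list and 2710 bp in pool G's. The Ucp3 domain joined 2 peaks in pool G's list but held 1 in pool H's, and its highest peak measured 1660 bp and 930 bp. At Slc25a4 it was -0.002, so the widest domain of the family had nearly the same width in both pools. Slc25a26 and Slc25a10 were wider in pool H, with ratios of 0.103 and 0.026. Pool H's list is the shorter one, and the part of depth or threshold in these widths was not tested.

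**Figure D5:**
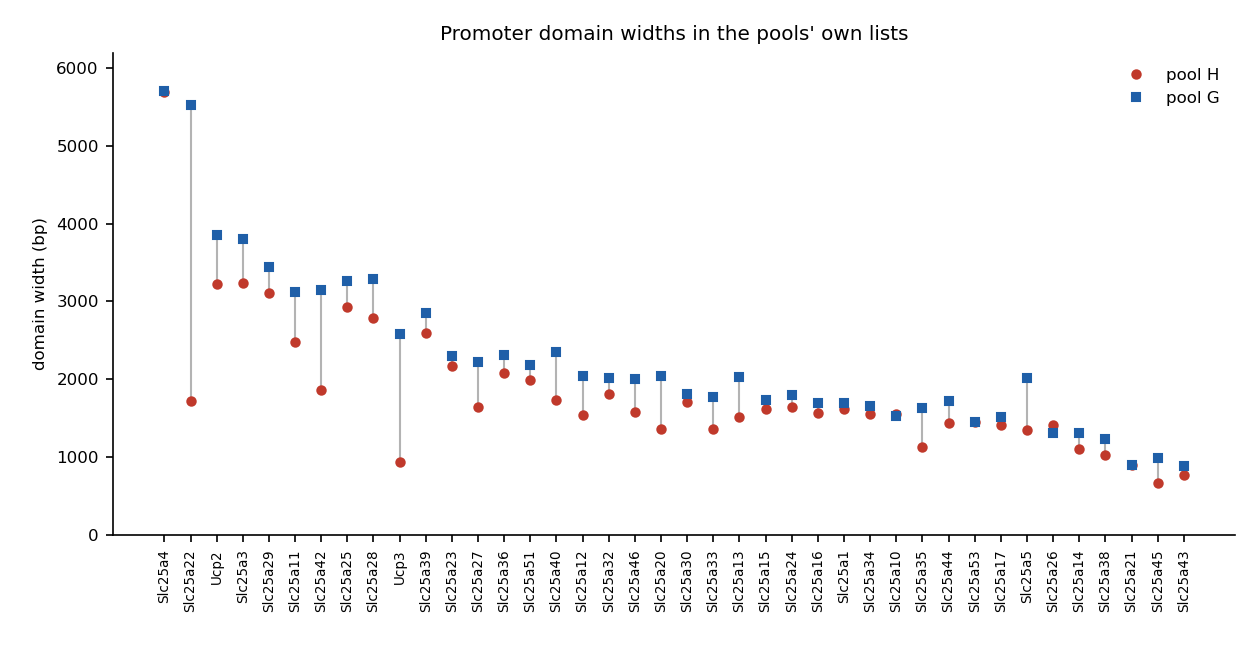
Promoter domain width in bp (y axis) of 40 of the 41 marked members in the lists of pool H (red circles) and pool G (blue squares), joined by a line, sorted by width in the replicated list. At Slc25a22 pool H has 1715 bp and pool G 5531 bp, at Ucp3 930 and 2586 bp, and at Slc25a4 5698 and 5706 bp.

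Short motifs were looked for on both strands of the RefSeq promoters, from 250 bases before to 50 after the start. Promoters were found for 39 members, and among the others Slc25a2, Slc25a26, Slc25a27, Slc25a32, Slc25a35, Slc25a37, Slc25a41, Slc25a44, Slc25a46 and Slc25a51 were not analysed here. The Sp letters CCGCCC occurred in 31 of 39 (79.5%), against 49.8% of 17274 promoters, and in 29 of 33 marked members, against 70.3% of all marked genes. The ETS letters CCGGAAG occurred in 7 (17.9%, all 13.1%), Slc25a3, Slc25a4 and Slc25a20 among them, but in 6 of 33 marked members, against 19.2% of all marked genes. The YY1 letters AAGATGGCG occurred in 1, Slc25a3 (2.56%, all 2.15%). The CRE letters TGACGTCA occurred in Slc25a25 and Slc25a36 (5.13%, all 2.58%). The NRF1 letters GCATGCGC occurred in Slc25a31 and Slc25a54 (5.13%, all 3.98%), both unmarked, so that 0 of 33 marked members had them, against 5.91% of all marked genes. The letters TATAAA occurred in Slc25a18 and Slc25a21 (5.13%, all 14.9%), and the ERR letters TCAAGGTCA in none (all 0.382%). A match says only that the letters are present.

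Beside the carriers, all 27 other mitochondrial transporters examined, such as Mpc1, Vdac1 and Mcu, were marked in all 4 lists, against 61.1% of all genes. Of these 27, 14 were CpG-rich, a class of which 96.7% was marked over all genes in the replicated list. The 27 had a median fold enrichment of 15.7 and a median width of 1831 bp in that list. The 10 cardiomyocyte markers had a median width of 7813 bp at a median fold enrichment of 9.31. Only 2 members, Slc25a4 and Slc25a22, had a domain of at least 4000 bp in the replicated list, and both were narrower than the markers' median. Slc25a4 had 5734 bp and a fold enrichment of 7.54, and Slc25a22 had 5502 bp and 12.9. In pool H's list the fold enrichment of Slc25a4 was 10.9.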

How the data were processed

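H3K4me3 peaks of heart chromatin were deposited as 4 lists in narrowPeak layout on mm10. The labels state fragments of 200 to 600 bp. Per the deposited library notes, pools G and H each have a list called with pseudoreplicates, and both pools together have one called that way and one called replicated. Each list joins both technical replicates of a pool. The caller, its version and its threshold are not given in the sources used here, nor is read depth. A possible control experiment is named in the labels, but its use is not. The deposited signal value per peak, the authors' own, was taken to be a fold over control (a ratio), although no header says so. The authors also deposited a -log10 q value per peak, used only for an alternative. B6CASTF1/J carries a second parental genome that mm10 does not represent.

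Genes, starts and exons came from GENCODE M21, whose build is that of the files, and sequence from RefSeq GRCm38.p6. A gene was marked where a peak overlapped by at least 1 bp the 1000 bp on either side of a protein-coding start. Its fold is that of the highest such peak, and its width that of the widest promoter domain, peaks up to 1000 bp apart being joined. Exact 50-base stretches of each member's promoter, at the start of its longest transcript, were searched for on both strands of chromosomes 1 to 19 and X. Overlaps were checked against bedtools 2.31.1 on simulated intervals. Python 3.11.15, numpy 2.4.6, pandas 2.3.3 and matplotlib 3.10.9 were used. The members, lists and rules were chosen with earlier results of these data known. One member counts in every total but is not reported here by name or in the figures. The others are named, and values per list are given for the 8 highest, the 8 widest, paralog sets and the main heart carriers. No test was made, because each pool has 1 list and the members were not drawn as a sample. Values were recomputed with each of the other lists, with peaks whose -log10 q reached 5, with windows of 500 or 2000 bp, with only the longest transcript's start, with joined gaps of 0 or 3000 bp, with the peak nearest to a start, and with CpG ratios of 0.5 and 0.7.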

Additional observations from a re-analysis of the deposited data

How the results depend on the processing

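The same 41 members were marked under each alternative list, threshold, window and choice of start. Of 34 values recomputed, 33 stayed within 1.5 times the stated count or within the spread between the pools' lists, but several could not have moved. That spread is set by the pools' own medians, which are among these values and are therefore not checked by it. The exception was the number of members with a CpG-rich promoter, which was 13 at a CpG ratio of at least 0.7 (all genes 20.7%) and 25 at 0.5 (all genes 43.8%), against 21 as reported. The annotated start lay inside the highest peak at 36 members in pool H's list and at 35 with the longest transcript only, against 38. Leaving out Slc25a37, whose promoter occurs elsewhere in mm10, was chosen after seeing the data and left 41 marked. This count could not change, because Slc25a37 was unmarked. The q threshold could not unmark a member, as the lowest -log10 q of a member's highest peak was 19.2, at Ucp3 in the replicated list. The highest peaks of all 41 were identical in both lists made from both pools, so their median fold enrichment could not differ there. A wider window could only add marked members. The count of 33 therefore overstates how far the results were checked. No paired analysis was possible because no test was made and each list pools its technical replicates. For the same reason no technical replicate could be left out. Read depth is unknown, so whether an unmarked promoter lay under a detection limit was not tested.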
